A study of Mus musculus with 10 samples.

Results

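The genes described here encode the subunits of the mitochondrial respiratory chain and of ATP synthase that are made from nuclear DNA. They were chosen by symbol: a probe set had to carry a single gene symbol in the platform annotation, matching the standard names of the subunits of complexes I to V. These names were Nduf followed by a, b, c, s or v and a digit, and Sdh followed by a, b, c or d alone. The rest began with Uqcr, with Cox followed by 4 to 8, or with Atp5. Of 19938 genes with such a probe set, 81 matched: 35 of complex I, 4 of complex II, 8 of complex III, 17 of complex IV and 17 of complex V. The probe set with the highest mean over all arrays stood for each gene. The series measured RNA of c-Kit-positive mouse acute myeloid leukaemia (AML) cells on 10 microarrays. All 5 lines were independent primary leukaemias driven by the MLL-AF9 fusion, taken from moribund mice, and every line also carried Cre-ER, a Cre recombinase that tamoxifen switches on. The fl 4-OHT group held 3 arrays, of lines 10949, 10950 and 10986, which have a floxed Zfx allele (Zfx fl/y) and were grown for 72 h with 10 nM 4-hydroxytamoxifen (4-OHT). The fl vehicle group held the same 3 lines grown with ethanol. The wt 4-OHT group held 2 arrays, of lines 10977 and 10980 (wt/y), and the wt vehicle group held those same 2 lines grown with ethanol. Cells positive for c-Kit were sorted after the culture. The sources used here do not name the promoter that drives Cre-ER or the days on which cultures were handled. Arrays of different lines are separate leukaemias, and each line gave 1 array per treatment, so the error below is the spread between lines.

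The respiratory chain passes electrons from NADH through complex I, or from succinate through complex II, to ubiquinone, then through complex III to cytochrome c and through complex IV to oxygen. Complexes I, III and IV pump protons across the inner mitochondrial membrane, and complex V, the ATP synthase, lets them back in and makes ATP. The core of complexes I, III, IV and V mixes proteins made from nuclear genes with proteins made from mitochondrial DNA, whereas complex II is wholly nuclear. Stem cells of human AML are known for their reliance on this pathway. Zfx is an X-linked zinc finger transcription factor needed for self-renewal of several stem cell types, and the series asked what its deletion does to gene expression in these cells.

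Zfx itself was measured at log2 levels of 10.07, 9.98 and 10.02 on the fl 4-OHT arrays of lines 10949, 10950 and 10986, against 10.09, 9.63 and 9.24 on their vehicle arrays, a difference of 0.37 (SE 0.16, limma adjusted p = 0.407). The groups overlapped and the mean of the probe set was not lower after 4-OHT. Line 10949 was nearly unchanged (10.07 against 10.09), and lines 10950 and 10986 were higher with 4-OHT. The sources used here do not place the probes relative to the deleted exons, so no check of the deletion can be drawn from these values. One array differed from the rest before any comparison, that of line 10986 with vehicle: its log2 interquartile range was 2.67, against 2.80 to 3.05 on the other 9 arrays, and it lay at 49.4 on the leading principal component, against -20.4 to 23.0. Counts of genes called or higher, and medians, over the subunits and gene lists in comparisons with the fl vehicle group are therefore also given without line 10986. Counts at an unadjusted p and of groups without overlap are given with all lines only. Of the 7 progenitor genes looked for (Kit, Cd34, Hoxa9, Meis1, Ptprc, Myb and Mpo), all passed the level filter. Kit had log2 levels of 8.72, 9.20 and 8.74 on the fl 4-OHT arrays, against 8.35, 8.90 and 8.81 on the fl vehicle arrays. It had 8.64 and 9.94 on the wt 4-OHT arrays, against 8.48 and 9.79 on the wt vehicle arrays.

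Of the 81 subunit genes, 80 passed a filter on the mean log2 level (6.23, the 25th percentile of all probe sets), and the exception was Cox7b2, a testis form of a complex IV subunit, at 5.47 to 5.58 on all 10 arrays. No subunit gene passed the threshold in any comparison. In the fl pairs, 0 of 80 were called with limma at an adjusted p of 0.05 over 15662 genes, where 0.153% of all genes were called, and 3 had an unadjusted p under 0.05 (1 higher, 2 lower), where 12.3% of all genes did. In the wt pairs 0 of 80 were called and 0% of all genes, and none of the 80 had an unadjusted p under 0.05 (0.147% of all genes). The error of the wt test is shared with the fl lines, whose subunit values spread more. The smallest adjusted p of a subunit gene was 0.174 in the fl pairs and 0.778 for the difference between the fl and wt effects. With array weights estimated from the data, in place of equal ones, 19 of the 80 (23.8%) were called in the fl pairs, 18 of them lower, where 24.9% of all genes were called. That setting gave line 10986 a weight of 0.162 and line 10949 a weight of 5.71, so its calls rest mainly on line 10949.

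Complex I, complex II and complex V subunits were on average slightly higher after 4-OHT in the fl lines, but the lines did not share a direction. The mean log2 difference over the 35 genes of complex I was 0.17 ± 0.44 (SD, n = 3 line pairs), made of -0.14 in line 10949, -0.03 in line 10950 and 0.67 in line 10986. For complex II it was 0.25 ± 0.47, with -0.13, 0.12 and 0.78 in the same lines. For complex V it was 0.15 ± 0.32, with -0.12, 0.06 and 0.49. In each of these 3 complexes the mean was smaller than its spread between lines. Complex III averaged -0.02 ± 0.32, with -0.29, -0.10 and 0.34, and complex IV averaged 0.09 ± 0.23, with -0.15, 0.14 and 0.30. Line 10986 was thus the highest of the 3 fl lines in every complex, and line 10949 was the lowest. Without line 10986 the 5 means were -0.08, -0.01, -0.19, -0.01 and -0.03 for complexes I to V.

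The wt lines differed less from each other. Line 10977 had -0.07, -0.01, -0.11, 0.05 and -0.03 for complexes I to V, and line 10980 had -0.09, -0.05, -0.04, -0.11 and -0.03. The 2 wt lines differed from each other by at most 0.16, in complex IV, whereas the 3 fl lines spanned 0.46 to 0.91.

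**Figure D1:**
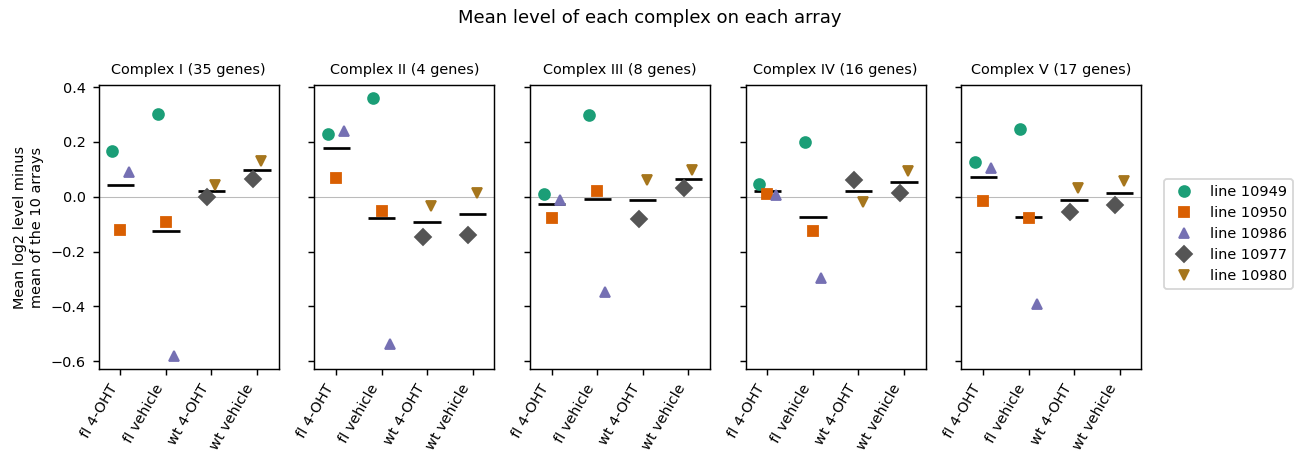
Mean log2 level of the tested subunit genes of each complex on each array, given as the difference from the mean of the 10 arrays (vertical axis). Points are arrays, shaped and coloured by line, and bars are group means. In each panel the fl vehicle group is the widest, with line 10949 at the top and line 10986 at the bottom, and the 3 fl 4-OHT arrays lie between them.

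Counted over genes, 60 of the 80 were higher with 4-OHT in the fl pairs (75%, against 49.99% of all genes tested) and their median difference was 0.16, against -0.00 over all genes. Lines 10949 and 10950 were both higher for 11 of the 80 (33.6% of all genes) and both lower for 30 (37.5%, against 28.7% of all genes). Per line, 13 of the 80 were higher in line 10949, 48 in line 10950 and 72 in line 10986. Without line 10986, 31 of the 80 were higher with a median of -0.05, and 0 of the 80 were called, against 2.81% of all genes. Leaving out only its vehicle array, with no block for the line, gave 36 of 80 and a median of -0.03. The surplus of higher subunit genes in the fl lines was therefore not found without that array. In the wt pairs 21 of the 80 were higher, with a median of -0.05, while 36 were lower in both lines (45%, against 24.5% of all genes) and 6 were higher in both (7.5%, against 24.3%).

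**Figure D2:**
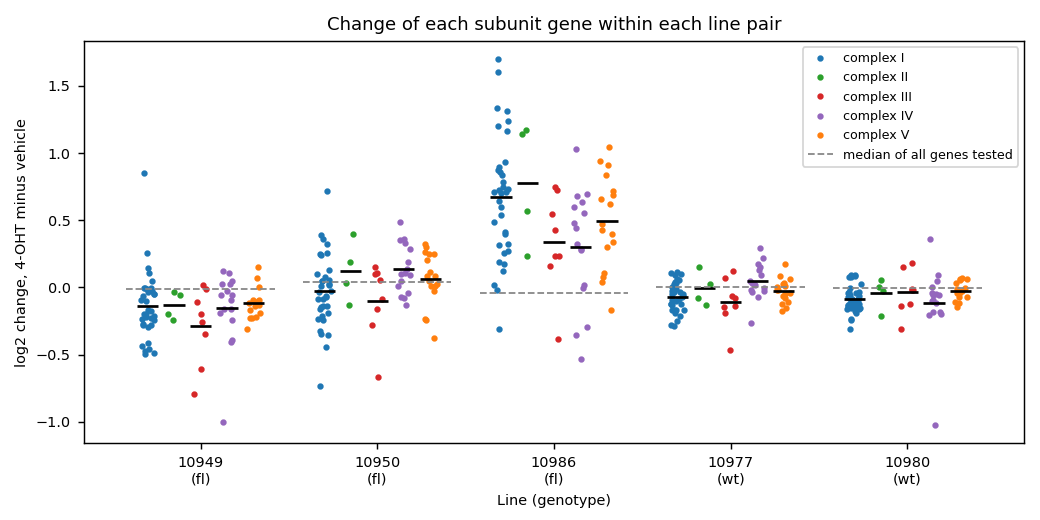
Log2 difference, 4-OHT minus vehicle, of each of the 80 tested subunit genes within each line (points, coloured by complex). Black bars are complex means and dashed lines the median of all genes tested. The points of line 10986 lie mostly above 0 (72 of 80), those of line 10949 mostly below (13 of 80 above), and those of the wt lines on both sides of 0 (31 and 19 of 80 above).

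The spread lay in the vehicle cultures of the fl lines. The vehicle array of line 10986 was the lowest of all 10 arrays for 60 of the 80 subunit genes (75%), against 26.1% of all genes tested. The median of its deviation from the mean of the other 9 arrays was -0.52 over the subunit genes, against 0.03 over all genes and -0.39 over the genes in the top of 4 equal classes by level, which holds 62 of the 80. The vehicle array of line 10949 stood at the other end: it was the highest of the 10 for 54 of the 80 (67.5%, against 14.4% of all genes). Its median deviation was 0.32 over the subunit genes, against 0.01 over all genes and 0.13 in the top class by level. The shares of all genes given here are over genes of every level and are not matched to the subunits. The SD between lines was smaller in the fl 4-OHT group than in the fl vehicle group for 76 of the 80, or 95%, against 71.1% of all genes, with medians of 0.13 and 0.38 over the subunit genes. Over lines 10949 and 10950 alone, the distance between them was also smaller under 4-OHT than under vehicle for 56 of the 80 (70%), against 43.6% of all genes, with medians of 0.20 and 0.34. These counts describe 6 arrays and carry no test. In bulk RNA, fewer cells of a type and less RNA per cell cannot be told apart.

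**Figure D3:**
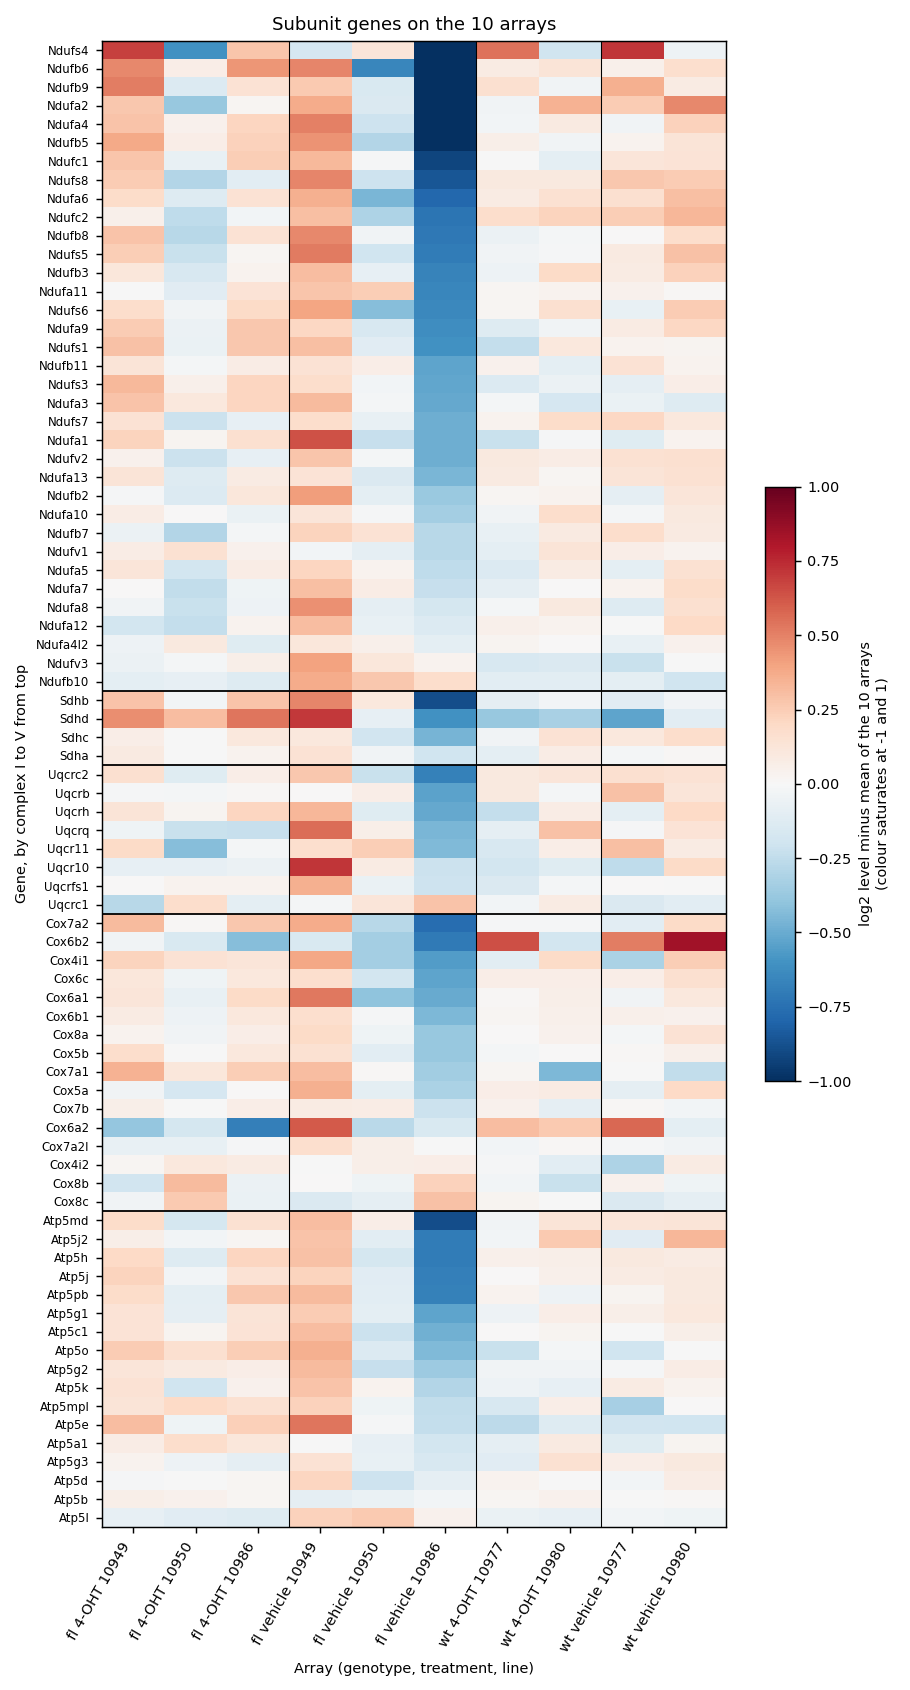
Log2 level of each tested subunit gene (rows, by complex from I at the top to V at the bottom) on each array (columns, by group), as the difference from that gene's mean over the 10 arrays. Colours saturate at -1 and 1. The column of the vehicle array of line 10986 is mostly blue (lowest array for 60 of 80 genes) and that of line 10949 mostly red (highest for 54 of 80).

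A few subunit genes differed in the same direction in all 3 fl lines. Lower in all 3 were Ndufb10, Cox7a2l and Atp5l (3.75% of the 80, against 14.5% of all genes), and 10 genes were higher in all 3 (12.5%, against 14.6%): Ndufa9, Ndufb9, Ndufs3, Ndufv1, Cox4i2, Cox5b, Cox6b2, Cox7a1, Atp5a1 and Atp5b. Both shares lie below those of all genes. Ndufb10, an accessory subunit in the membrane arm of complex I, had log2 levels of 7.90, 7.92 and 7.87 on the fl 4-OHT arrays, against 8.37, 8.27 and 8.18 on the fl vehicle arrays. The wt arrays lay with the fl 4-OHT arrays, at 7.90 and 7.90 under 4-OHT and 7.90 and 7.81 under vehicle. Ndufb10 was thus highest on the 3 fl vehicle arrays, without overlap with any of the other 7. The difference in the fl pairs was -0.38 (SE 0.09, unadjusted p = 0.00542, adjusted p = 0.174, limma), that in the wt pairs was 0.04 (SE 0.11), and the difference between them was -0.42 (SE 0.15, adjusted p = 0.778). Over the alternatives tried, its adjusted p in the fl pairs lay between 0.00087, with array weights, and 0.489, without line 10949.

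Atp5l, subunit g of the membrane part of ATP synthase, which helps hold synthase dimers together, showed the same order. Its log2 levels were 10.43, 10.39 and 10.38 on the fl 4-OHT arrays, against 10.74, 10.77 and 10.55 on the fl vehicle arrays. The wt 4-OHT arrays had 10.45 and 10.43, and the wt vehicle arrays 10.49 and 10.47. With the brightest probe set the 3 fl vehicle arrays again lay above the other 7, as for 2 of the 80 subunit genes and 1.61% of all genes. The fl difference was -0.29 (SE 0.09, unadjusted p = 0.0201, limma adjusted p = 0.285). All 6 probe sets that carry the Atp5l symbol had a lower level with 4-OHT in each fl line, with mean differences from -0.25 to -0.33. In 4 of the 6, however, the lowest fl vehicle array lay below the highest of the other 7, so the separation was not shared by all of them. Whether they read 1 transcript or near-identical copies of the gene was not tested. Cox7a2l, which joins complexes III and IV into supercomplexes, had 9.41, 9.41 and 9.47 on the fl 4-OHT arrays, against 9.65, 9.54 and 9.47 on the fl vehicle arrays, a difference of -0.13 (SE 0.10, limma adjusted p = 0.715). Its 3 fl 4-OHT arrays lay below all fl vehicle arrays, though its difference within line 10986 was -0.00, and its other probe set averaged -0.01 and was higher with 4-OHT in that line. In all, the fl 4-OHT arrays lay below the fl vehicle arrays without overlap for these 3 genes (7.27% of all genes) and above them for Atp5a1, Atp5b and Ndufv1 (4.55% of all genes).

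Atp5b, the catalytic beta subunit of the synthase head, was the steadiest of the set, with a range of 0.15 over the 10 arrays. Its log2 levels were 13.47, 13.45 and 13.43 with 4-OHT in the fl lines, against 13.32, 13.34 and 13.38 with vehicle, and the wt arrays had 13.43 and 13.45, against 13.40 and 13.42. All 3 fl vehicle arrays lay below the other 7, by a small margin, as did 1.29% of all genes. The difference of 0.10 (SE 0.09, limma adjusted p = 0.774) did not pass the threshold. At the other extreme, Ndufb6, an accessory subunit of the membrane arm of complex I, had the highest mean difference of the 80. Its levels were 12.40, 11.98 and 12.35 on the fl 4-OHT arrays, against 12.40, 11.26 and 10.65 on the fl vehicle arrays. The difference of 0.80 (SE 0.28, limma adjusted p = 0.316) was made of -0.01, 0.72 and 1.70 in lines 10949, 10950 and 10986, and was 0.36 without line 10986 (adjusted p = 0.291). The wt levels were 12.00 and 12.05 with 4-OHT, against 11.96 and 12.08 with vehicle.

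**Figure D4:**
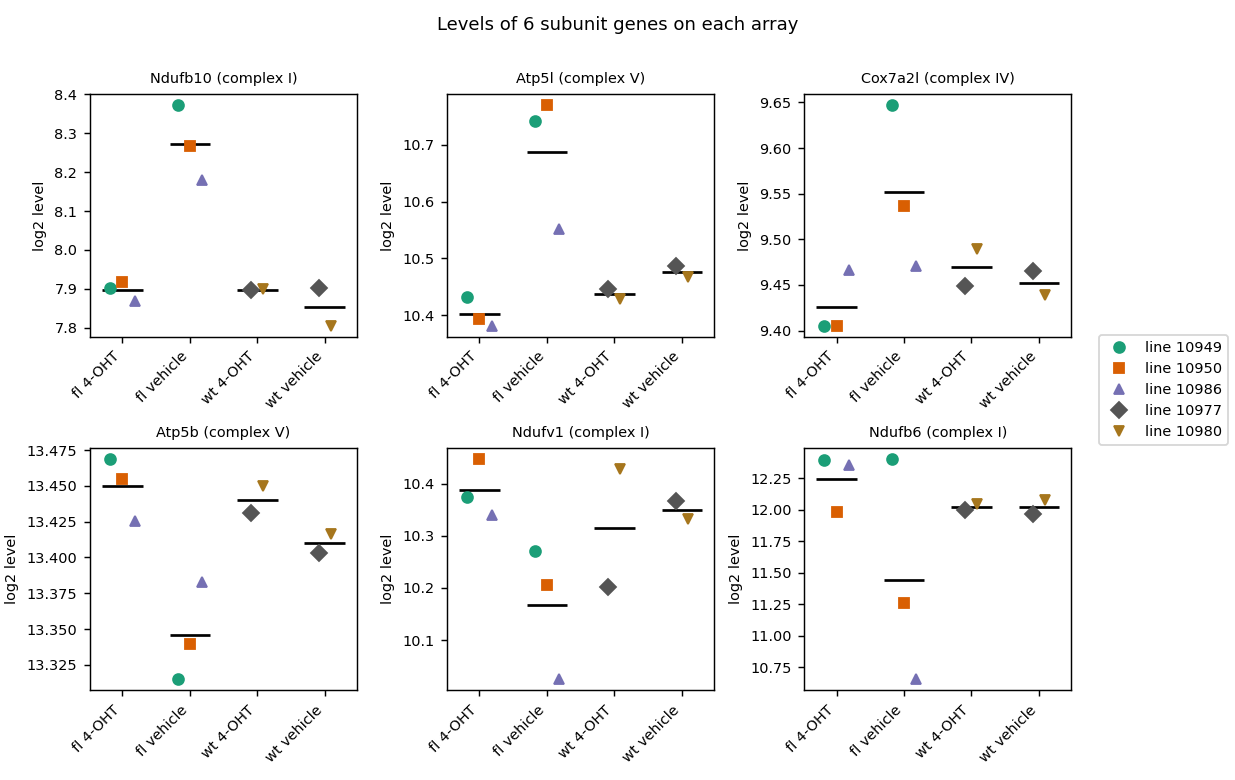
Log2 levels of 6 subunit genes on each array (points, by line), with group means as bars. Axes differ between panels and do not start at 0. Ndufb10 and Atp5l are highest on the 3 fl vehicle arrays, Atp5b is lowest there, and Ndufb6 is low on the vehicle arrays of lines 10950 and 10986 (11.26 and 10.65).

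The promoters of these 4 genes are shown because Ndufb10 and Atp5l were highest, and Atp5b lowest, on the 3 fl vehicle arrays, and Ndufb6 had the highest mean difference. Sequences are the 250 bases before the gene's start in RefSeq's table of assembly GRCm38.p6, read along the gene, and capitals mark the NRF1 letters CGCATGCG or the GABPA (ETS) letters CCGGAAG on either strand. The sources used here do not name the files' own build.
Ndufb10: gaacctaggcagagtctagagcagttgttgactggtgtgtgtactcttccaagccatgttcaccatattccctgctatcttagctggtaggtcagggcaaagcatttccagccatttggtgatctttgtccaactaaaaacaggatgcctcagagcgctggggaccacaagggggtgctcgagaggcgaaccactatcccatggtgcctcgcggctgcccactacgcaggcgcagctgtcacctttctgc
Atp5l: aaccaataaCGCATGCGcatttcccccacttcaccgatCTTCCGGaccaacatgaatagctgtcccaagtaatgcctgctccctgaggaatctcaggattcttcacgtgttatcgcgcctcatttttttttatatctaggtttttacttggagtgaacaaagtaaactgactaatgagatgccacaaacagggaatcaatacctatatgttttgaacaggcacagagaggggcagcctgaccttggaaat
Ndufb6: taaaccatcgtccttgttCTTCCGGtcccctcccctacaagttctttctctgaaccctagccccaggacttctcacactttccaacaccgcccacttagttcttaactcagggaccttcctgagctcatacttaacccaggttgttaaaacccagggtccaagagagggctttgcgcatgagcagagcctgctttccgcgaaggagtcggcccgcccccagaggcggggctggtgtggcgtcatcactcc
Atp5b: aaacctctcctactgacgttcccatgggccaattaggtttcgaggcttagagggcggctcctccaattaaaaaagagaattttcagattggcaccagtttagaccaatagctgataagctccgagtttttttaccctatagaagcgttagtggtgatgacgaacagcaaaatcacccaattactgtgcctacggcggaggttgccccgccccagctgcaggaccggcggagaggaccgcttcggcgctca
Ndufb10 lies on the minus strand (chr17:24724424-24724673), as do Atp5l (chr9:44920743-44920992) and Ndufb6 (chr4:40279422-40279671), and Atp5b lies on the plus strand (chr10:128083057-128083306). The window of Atp5l held the NRF1 letters at -241 to -234 and the GABPA letters on the opposite strand at -212 to -206, counted from the start of the gene. That of Ndufb6 held the GABPA letters on the opposite strand at -232 to -226, and those of Ndufb10 and Atp5b held neither. NRF1 and GABPA are transcription factors known to act on many respiratory chain genes. Of the 81 genes, 66 had an entry, with 71 windows. The NRF1 letters were in 9.86% of these windows, against 1.55% of all 32851 windows of the table, and the GABPA letters in 16.9%, against 6.91%. The letters AAGATGGCG (YY1) were in only 1 of the 71 windows (1.41%, against 0.606%). TCAAGGTCA (ESRRA) was likewise in only 1 (1.41%, against 0.387%). The letters AGGCCTNG (ZFX) were in 2.82%, against 4.41%, the windows of Ndufc2 and Ndufv1. Both strands were searched, no match overlapped another in the printed windows, and a match is only a match of letters.

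Complex I is the largest group, with 35 of the 81 genes. Its 6 core subunits made from nuclear genes carry the flavin and iron-sulphur centres, and their mean difference with 4-OHT was -0.04, -0.01 and 0.58 in fl lines 10949, 10950 and 10986, against -0.15 and -0.02 in wt lines 10977 and 10980. The 29 accessory subunits had -0.16, -0.03 and 0.69 in the fl lines, against -0.05 and -0.10 in the wt lines. In the fl lines both kinds were lowest in line 10949 and highest in line 10986, and the 2 wt lines stood in opposite order for the 2 kinds. Ndufv1, which binds NADH and the flavin, was at 10.38, 10.45 and 10.34 on the fl 4-OHT arrays, against 10.27, 10.21 and 10.02 on the fl vehicle arrays, without overlap, a difference of 0.22 (SE 0.10, limma adjusted p = 0.466). The wt arrays of Ndufv1 had 10.20 and 10.43 with 4-OHT, against 10.37 and 10.33 with vehicle. Ndufs3, another core subunit, was at 11.14, 10.87 and 11.03 with 4-OHT, against 10.99, 10.79 and 10.30 with vehicle in the fl lines (0.32, SE 0.14, limma adjusted p = 0.451). Ndufs1, the largest core subunit, had 9.85, 9.49 and 9.83, against 9.86, 9.44 and 8.96, so that only line 10986 differed by more than 0.1. Ndufs7, which holds the iron-sulphur cluster nearest to ubiquinone, had 12.84, 12.47 and 12.61 with 4-OHT, against 12.87, 12.62 and 12.20 with vehicle (0.08, SE 0.13, limma adjusted p = 0.955). Ndufs8, which holds further clusters, differed by 0.14 (SE 0.19). Ndufv2 differed by -0.01 (SE 0.14).

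Among the accessory subunits of complex I, the values on the vehicle array of line 10986 set most of the differences. Ndufb9 had 11.67, 11.02 and 11.30 on the fl 4-OHT arrays, against 11.41, 11.00 and 9.97 on the fl vehicle arrays (0.53, SE 0.24, limma adjusted p = 0.443). In the wt lines it had 11.32 and 11.12 with 4-OHT, against 11.51 and 11.24 with vehicle. Ndufa9 had 11.05, 10.74 and 11.07 with 4-OHT, against 11.01, 10.64 and 10.18 with vehicle in the fl lines (0.35, SE 0.17, limma adjusted p = 0.497). Both genes have lower levels on that vehicle array than on any other. The difference of Ndufa2 was 1.20 in line 10986 and -0.10 and -0.23 in lines 10949 and 10950, Ndufc1 had 1.16 against -0.05 and -0.07, and Ndufb5 had 1.24 against -0.07 and 0.36. Ndufs4, an accessory subunit needed for a stable complex, had the widest range of all members, 2.03 over the 10 arrays. Its levels were 12.67, 11.38 and 12.27 on the fl 4-OHT arrays, against 11.82, 12.11 and 10.66 on the fl vehicle arrays, so its 3 pairs gave 0.85, -0.73 and 1.60 (mean 0.57, SE 0.39, limma adjusted p = 0.647). Ndufv3 and Ndufa8 were lower in lines 10949 and 10950 and near 0 or above it in line 10986, with -0.46, -0.14 and 0.02 for Ndufv3 and -0.50, -0.14 and 0.12 for Ndufa8. Ndufc2, a membrane arm subunit, had 12.88, 12.58 and 12.81 on the fl 4-OHT arrays, against 13.13, 12.52 and 12.10 on the fl vehicle arrays (0.17, SE 0.18, limma adjusted p = 0.843). Over the 35 genes of complex I, 17 were lower in lines 10949 and 10950 and higher in line 10986, out of 27 such genes among the 80 (33.8%, against 14.1% of all genes).

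Complex II, succinate dehydrogenase, has 4 subunits, all measured. Sdha, which holds the flavin, had 11.03, 10.93 and 10.97 on the fl 4-OHT arrays, against 11.08, 10.90 and 10.74 on the fl vehicle arrays (0.07, SE 0.10). Sdhb, the iron-sulphur subunit, had 10.39, 10.07 and 10.38, against 10.59, 10.20 and 9.21 (0.28, SE 0.26). The membrane anchors Sdhc and Sdhd had mean differences of 0.24 (SE 0.13, limma adjusted p = 0.549) and 0.43 (SE 0.24, adjusted p = 0.562), with their lowest fl value on the same vehicle array. Sdhd differed between genotypes without overlap under 4-OHT. It had 11.93, 11.77 and 12.00 on the fl 4-OHT arrays, against 11.08 and 11.14 on the wt 4-OHT arrays, a difference of 0.79 (SE 0.32, unadjusted p = 0.0374, limma adjusted p = 0.405). Under vehicle it had 12.17, 11.38 and 10.86 in the fl lines, against 10.93 and 11.35 in the wt lines, which overlap.

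Complex III, which passes electrons from ubiquinol to cytochrome c, was the complex whose mean did not lie above 0 in the fl pairs. Its core proteins differed in direction: Uqcrc1 had 10.69, 11.15 and 10.87 with 4-OHT, against 10.95, 11.09 and 11.25 with vehicle in the fl lines (-0.20, SE 0.11, limma adjusted p = 0.581), and Uqcrc2 had 13.05, 12.77 and 12.96, against 13.16, 12.67 and 12.21 (0.25, SE 0.17, adjusted p = 0.649). Uqcrc1 was highest of all 10 arrays on the vehicle array of line 10986, where Uqcrc2 was lowest. The Rieske iron-sulphur protein Uqcrfs1 had 8.32, 8.35 and 8.35, against 8.67, 8.25 and 8.11, a difference of -0.00 (SE 0.13). Among the small subunits, Uqcr10 had 10.61, 10.62 and 10.64 with 4-OHT, against 11.41, 10.78 and 10.48 with vehicle, and Uqcrq had 10.44, 10.26 and 10.25, against 11.05, 10.55 and 10.02. Their differences were -0.27 (SE 0.19) and -0.22 (SE 0.16), with the largest in line 10949. For Uqcr10 the 3 fl 4-OHT arrays lay within 0.03 of each other while the 3 vehicle arrays spanned 0.93. Uqcrb, a small subunit known to contact ubiquinone, had 12.84, 12.82 and 12.85, against 12.85, 12.91 and 12.31 (0.15, SE 0.14). Uqcrh and Uqcr11 differed by 0.23 (SE 0.17) and -0.08 (SE 0.21).

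Complex IV, cytochrome c oxidase, has widely expressed subunits and forms that are restricted to muscle, lung or testis. The 9 widely expressed ones had mean differences of -0.15, 0.13 and 0.57 in fl lines 10949, 10950 and 10986, and the 6 restricted ones that passed the filter had -0.15, 0.19 and -0.05. In line 10986 all 9 widely expressed ones were higher, as were 3 of the 6 restricted ones. The 2 kinds also differ in level, with means from 10.44 (Cox5a) to 13.68 (Cox6c) and from 6.34 (Cox8b) to 9.31 (Cox6a2). On the vehicle array of line 10986 the median deviation was 0.16 in the lowest of 4 equal classes by level and -0.39 in the top. Whether the contrast goes with form or with level was not tested. Cox4i1 had 11.02, 10.94 and 10.92 on the fl 4-OHT arrays, against 11.18, 10.45 and 10.24 on the fl vehicle arrays (0.34, SE 0.17, limma adjusted p = 0.503), while Cox4i2, its lung form, had 7.51, 7.60 and 7.57, against 7.49, 7.55 and 7.56 (0.03, SE 0.12). Cox6a1 differed by -0.40, 0.33 and 0.69 in the 3 fl lines. Its heart and muscle form Cox6a2 had 8.92, 9.13 and 8.62 with 4-OHT, against 9.92, 9.04 and 9.16 with vehicle, the lowest mean difference of the 80 at -0.48 (SE 0.22, limma adjusted p = 0.451). In the wt lines Cox6a2 had 9.61 and 9.57 with 4-OHT, against 9.88 and 9.21 with vehicle. Its fl pairs gave -1.003, 0.09 and -0.53 in lines 10949, 10950 and 10986.

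The other pairs of forms were as follows. Cox6b1 differed by 0.14 (SE 0.14) and its testis form Cox6b2 by 0.20 (SE 0.20). Cox6b2 kept the fl and wt lines apart under vehicle but not under 4-OHT: it had 8.84, 8.72 and 8.45 on the fl 4-OHT arrays, against 9.52 and 8.69 on the wt 4-OHT arrays, and 8.72, 8.53 and 8.17 on the fl vehicle arrays, against 9.39 and 9.72 on the wt vehicle arrays. The vehicle difference of -1.08 (SE 0.26, unadjusted p = 0.0028, limma adjusted p = 0.321) was the widest between genotypes in the set. Cox7a2 differed by 0.42 (SE 0.20) and its muscle form Cox7a1 by 0.25 (SE 0.14), both with the largest value in line 10986 (1.03 and 0.60). Cox8a, the widely expressed form, differed by 0.10 (SE 0.13), and the forms Cox8b and Cox8c by -0.04 (SE 0.14) and 0.03 (SE 0.14). Cox5a, Cox5b, Cox6c and Cox7b, which have no restricted partner that passed the filter, differed by -0.05 (SE 0.15), 0.20 (SE 0.12), 0.24 (SE 0.14) and 0.06 (SE 0.11). Ndufa4, named for complex I but known as a part of complex IV, differed by -0.22, 0.25 and 1.31 in the fl lines, and its relative Ndufa4l2, a hypoxia-induced gene, by -0.17, 0.05 and -0.02. Counting Ndufa4 in complex IV gave means of 0.16 for complex I and 0.12 for complex IV in the fl pairs.

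Complex V has a catalytic head, a stalk and a membrane part with a ring of c subunits. The 5 genes of F1, the head with its central stalk, had means of -0.08, 0.16 and 0.31 in the 3 fl lines. The c ring genes had -0.14, 0.12 and 0.39, and the other stalk and membrane genes -0.14, -0.01 and 0.63. In the wt lines the same parts lay between -0.10 and 0.01. Atp5a1, the alpha subunit of the head, had 11.98, 12.09 and 12.03 on the fl 4-OHT arrays, against 11.91, 11.83 and 11.73 on the fl vehicle arrays, without overlap (0.21, SE 0.10, limma adjusted p = 0.452). In the wt lines it had 11.82 and 12.00 with 4-OHT, against 11.79 and 11.94 with vehicle. Atp5c1, Atp5d and Atp5e, the F1 subunits of the central stalk, differed by 0.23 (SE 0.15), 0.03 (SE 0.12) and 0.07 (SE 0.15). The c subunit is made from 3 genes: Atp5g1, Atp5g2 and Atp5g3 differed by 0.18 (SE 0.16), 0.19 (SE 0.14) and -0.00 (SE 0.10). In the stalk, Atp5o, Atp5h, Atp5j and Atp5pb differed by 0.27 to 0.31, with adjusted p from 0.519 to 0.709. Atp5md, a small membrane subunit, differed by -0.12, -0.25 and 1.04 in the fl lines. Atp5k, Atp5j2 and Atp5mpl differed by -0.01 (SE 0.13), 0.19 (SE 0.18) and 0.18 (SE 0.12).

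Between genotypes under 4-OHT, the levels of the complexes differed little. The fl 4-OHT means were 10.41 ± 0.15, 11.10 ± 0.10, 10.98 ± 0.05, 10.26 ± 0.02 and 12.01 ± 0.08 for complexes I to V (SD, n = 3), against 10.39 ± 0.03, 10.83 ± 0.08, 11.00 ± 0.10, 10.26 ± 0.06 and 11.92 ± 0.06 on the wt 4-OHT arrays (n = 2). The widest difference of a complex mean was 0.27, in complex II, where Sdhd alone differed by 0.79. In that comparison 0 of the 80 were called with limma (0.645% of all genes) and 2 had an unadjusted p under 0.05 (Sdhd higher and Cox6a2 lower), against 10.8% of all genes. All 3 fl arrays lay above both wt arrays for 16 of the 80 (20%, against 12.6% of all genes) and below them for 5 (6.25%, against 14.2%), namely Cox5a, Cox6a2, Ndufa8, Ndufc2 and Ndufv2. With array weights that did not converge, 2 of the 80 were called (Atp5e and Sdhd), against 6.99% of all genes. Atp5o was among the 16, at 11.34, 11.25 and 11.33, against 10.87 and 11.07 (0.34, SE 0.20, limma adjusted p = 0.704).

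Under vehicle, the fl means were 10.24 ± 0.44, 10.84 ± 0.45, 11.00 ± 0.32, 10.17 ± 0.25 and 11.86 ± 0.32 for complexes I to V, against 10.46 ± 0.05, 10.85 ± 0.11, 11.07 ± 0.05, 10.30 ± 0.06 and 11.95 ± 0.06 on the wt vehicle arrays. The fl lines thus spread more than they differed from the wt lines. Here 0 of the 80 were called (0.0192% of all genes), and 3 had an unadjusted p under 0.05, against 9.83% of all genes: Ndufb10 and Ndufv3 higher and Cox6b2 lower in the fl lines. Ndufb10 had the smallest adjusted p, 0.263, with a difference of 0.42 (SE 0.09). In all, 19 of the 80 were higher in the fl lines, with a median of -0.14, but without line 10986 this was 49 of 80 with a median of 0.02. With array weights 29 of the 80 (36.2%) and 40.7% of all genes were called in this comparison, in a fit whose weights did not converge. Groups did not overlap for 5 genes that were higher in the fl lines (18.6% of all genes) and 4 that were lower (12.1%). The fl vehicle arrays enter this comparison and the fl pairs alike, so these comparisons are not independent.

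The test of the difference between the fl and wt effects called 0 of the 80 and 0% of all genes with limma. At an unadjusted p under 0.05 it held 1 subunit gene, Ndufb10, against 5.82% of all genes. The difference was above 0 for 64 of the 80, with a median of 0.24, and for 41 of 80 with a median of 0.00 without line 10986. With array weights it called Ndufb10 alone of the 80, against 2.29% of all genes.

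Other genes of the pathway were counted in the fl pairs from lists chosen by function. Of 47 assembly factors tested, 0 were called and 36 were higher, with a median of 0.17. Their mean difference was -0.08, -0.08 and 0.65 in lines 10949, 10950 and 10986, and without line 10986 the count was 18 of 47 higher, with a median of -0.06. In that fit 2 of the 47 were called lower (Cox14 and Coa3), against 2.81% of all genes called in either direction. In the wt pairs 3 of these 47 were higher, with a median of -0.14. Of 14 further parts and carriers, such as cytochrome c (Cycs) and cytochrome c1 (Cyc1), 0 were called and 11 were higher (median 0.06), and of 8 coenzyme Q synthesis genes 0 were called and 6 were higher (median 0.07). Of 13 citric acid cycle genes 0 were called and 9 were higher (median 0.11), and of 19 regulators and mitochondrial DNA expression genes 0 were called and 13 were higher (median 0.07). None of the 13 mitochondrially encoded subunits looked for could be named through the annotation, and they are not analysed here. All genes tested had a median of -0.00 in the same comparison. Without line 10986, 5 of the 14 carriers were higher (median -0.04), 5 of the 8 coenzyme Q genes (0.01), 6 of the 13 citric acid cycle genes (-0.01) and 8 of the 19 regulators (-0.06). In that fit Idh2, Nrf1 and Tfam were called lower and no gene of these 4 lists was called higher, against 2.81% of all genes called in either direction.

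Some of these genes had lower levels after 4-OHT in all 3 fl lines without overlap, as did 7.27% of all genes. Cox14, Nrf1 and Idh2 had the smallest p values of their lists in this same comparison, so their separation is no separate support. Cox14, which is needed for assembly of complex IV, had 8.60, 8.57 and 8.50 on the fl 4-OHT arrays, against 9.39, 9.10 and 9.04 on the fl vehicle arrays, and 9.001 and 9.14, against 9.03 and 9.19, on the wt arrays. The fl difference of -0.62 (SE 0.10, limma adjusted p = 0.0856) did not pass the threshold. It passed under 3 alternatives, without line 10986 (adjusted p = 0.0207), with the line as a random block (0.0411) and with array weights (0.000136). Nrf1, a transcriptional activator of respiratory chain genes, had 8.78, 8.62 and 8.68, against 9.24, 9.19 and 9.03 in the fl lines (-0.46, SE 0.11, limma adjusted p = 0.153). On the wt arrays it had 9.004 and 9.23 with 4-OHT, against 9.10 and 9.02 with vehicle. Idh2, the mitochondrial NADP-dependent isocitrate dehydrogenase, had 10.05, 10.39 and 9.93, against 10.89, 11.20 and 11.10 (-0.94, SE 0.14, limma adjusted p = 0.0836). Ptpmt1, a mitochondrial phosphatase of cardiolipin synthesis, had 8.54, 8.47 and 8.52, against 10.02, 9.45 and 8.96 (-0.97, SE 0.19, limma adjusted p = 0.114). For Nrf1, Idh2 and Ptpmt1 the limma adjusted p without line 10986 was 0.0478, 0.0251 and 0.00602, and all 3 also passed with array weights. The others named by the rule were higher on average: Cox10, which makes the haem of complex IV, by 0.32 (SE 0.10, limma adjusted p = 0.276), Lrpprc, which stabilises mitochondrial messenger RNA, by 0.44 (SE 0.13, adjusted p = 0.233), and Suclg2, a succinyl-CoA ligase subunit, by 0.52 (SE 0.16, adjusted p = 0.241). Coq5, Coq3, Etfdh and Slc25a5, 2 coenzyme Q enzymes, an electron carrier oxidoreductase and the ADP/ATP carrier, had 0.36, 0.51, 0.47 and 0.21, with adjusted p from 0.357 to 0.485.

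Markers of more mature cells differed along with treatment in the fl lines, and their part in the values above was not tested. Of 14 monocyte and macrophage markers 12 were tested, and 11 of these were higher, with a median of 0.77. Of the 12, 3 were called, against 0.153% of all genes. Vcan rose by 1.48 (SE 0.11, adjusted p = 0.0143, limma), Ctss by 1.40 (SE 0.16, adjusted p = 0.046) and Irf8 by 0.93 (SE 0.10, adjusted p = 0.0373). Without line 10986, 11 of the 12 were higher with a median of 0.66, and 4 were called higher (Vcan, Ctss, Irf8 and Lyz2) and 1 lower (Ccr2), against 2.81% of all genes. Their summed signal was 12019 to 20277 on the fl 4-OHT arrays, against 8206 to 12141 on the fl vehicle arrays, and 9693 to 16513, against 12576 to 13596, on the wt arrays. Of 10 late granulocyte markers 8 were higher, with a median of 0.22, and 1 was called, Mmp8 (2.56, SE 0.19, adjusted p = 0.0143, limma). Without line 10986, 9 were higher with a median of 0.21, and Mmp8 was again the 1 called. Their sums were 7738 to 15141 on the fl 4-OHT arrays, against 5699 to 9761 on the fl vehicle arrays, and 5718 to 24301, against 9612 to 20528, on the wt arrays. In wt line 10977, 11 of the 12 monocyte markers were higher with 4-OHT (mean difference 0.27), as were 9 of the 10 granulocyte markers (0.27). In wt line 10980, 3 and 0 of them were higher, with mean differences of -0.34 and -0.50. The vehicle arrays of lines 10986 and 10949, lowest and highest for most subunits, had monocyte sums of 9515 and 12141. No erythroid or lymphoid marker was called, with or without line 10986, among the 4 and 3 that passed the filter. The lymphoid markers Cd79a and Cd4 were below it. The 7 progenitor markers had a median difference of 0.15 and 0 calls, with sums of 19227 to 24584 on the fl 4-OHT arrays, against 16883 to 22754 on the fl vehicle arrays, and 24236 to 28099, against 23242 to 27505, on the wt arrays. Without line 10986, 4 of these 7 were higher, with a median of 0.14 and 0 calls.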

How the data were processed

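RNA of 10 samples was measured on 1-colour microarrays. The deposited intensity values, linear and 1 per probe set, were made by the authors with RMA, per the submitters' processing notes, with no version given. They were taken to log2 as deposited, so background and scaling are the authors'. No count or depth exists for arrays, and the number of arrays limits the precision. Of 35556 probe sets, 21789 carry 1 gene symbol in GEO's platform annotation, 1621 carry several and 12146 are not listed there. Genes kept their brightest probe set, and 15662 of 19938 passed the level filter (6.23 log2).

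The pairs were fitted in limma 3.58.1 (R 4.3.3) with the line as a block and a 4-OHT term for each genotype, and genotypes were compared between the 4 group means, the line entering as a random effect (statmod 1.5.0, correlation 0.165). P-values were adjusted by Benjamini-Hochberg over all genes tested, with a threshold of 0.05. Only the fit of the fl pairs was run on simulated data, and the other comparisons were not. The simulated errors were independent and of equal size on all arrays, so no array deviated as the vehicle array of line 10986 did. Both arrays of a line come from the same leukaemia, which is what pairs them. Their deviations from the group means correlated at 0.78, 0.22 and -0.06 for lines 10949, 10950 and 10986 (fl). Lines 10977 and 10980 (wt) share a single value, 0.43. A wt group holds only this pair of lines, so the deviations of either line mirror those of the other. The shared value is therefore no separate check of each wt line. P-values measure the spread between lines, with a single estimate per gene shared by the fl and wt lines. The SE and p of the wt pairs thus carry the spread of the fl lines too, and those of the fl pairs that of the wt lines. For Ndufb6, the wt pairs gave 0.04 and -0.03 with an SE of 0.35, and the fl pairs -0.01, 0.72 and 1.70 with an SE of 0.28.

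The members and gene lists were chosen with earlier results of these data known. Named genes were the brightest 2 of each complex, those with the widest differences of 1 sign in all 3 fl lines, tissue-restricted forms with their partners, and the smallest p values of each other list; further subunits were named after their values were seen. The alternatives were other blocks, filters, scalings, priors, array weights, probe set means, an offset of 16, and each line left out. Another 6 probe sets with several symbols match the rule and were not used.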

Additional observations from a re-analysis of the deposited data

Results flagged for a closer look

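In 4 subunit genes every fl line was higher and both wt lines were lower with 4-OHT. The difference between the fl and wt effects was 0.69 for Ndufb9 (limma adjusted p = 0.902), with 0.02 to 1.34 in the fl lines and -0.19 to -0.12 in the wt lines. It was 0.58 for Ndufa9 (adjusted p = 0.875), with 0.05 to 0.89 and -0.24 to -0.21. Ndufs3 had 0.40 (adjusted p = 0.908), with 0.07 to 0.73 and -0.13 to -0.05, and Cox5b had 0.24 (adjusted p = 0.928), with 0.02 to 0.48 and -0.04 in both wt lines. None of the 4 passed the threshold, and the highest fl value was that of line 10986 in each.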

How the results depend on the processing

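No subunit gene was called in any comparison under any alternative except array weights, which called 19 in the fl pairs, 1 for the difference of the fl and wt effects, 2 between genotypes under 4-OHT and 29 under vehicle. They put most weight on line 10949 and did not converge for group means. With them the complex IV mean was -0.11 in the fl pairs and -0.081 for the difference of effects. The fl pairs' difference turned its sign with array weights for Ndufc2 (-0.19), Ndufs7 (-0.033), Sdhd (-0.14), Uqcrc2 (-0.064), Uqcrb (-0.0057), Cox6c (-0.018), Cox7b (-0.022), Atp5d (-0.18), Cox4i1 (-0.072), Cox6a1 (-0.30), Cox6b1 (-0.071), Cox8a (-0.13), Ndufa4 (-0.13) and Coq3 (-0.090). Without the vehicle array of line 10986 and with no replicate block it turned for Ndufc2 (-0.070), Ndufs7 (-0.10), Uqcrb (-0.041), Cox7b (-0.037), Atp5d (-0.0023), Cox6b1 (-0.036), Cox8a (-0.052) and Cox8b (0.044). With 1 line left out at a time, it ranged from -0.10 to 0.38 for Ndufc2, -0.089 to 0.19 for Ndufs7, -0.0033 to 0.42 for Uqcrc2, -0.049 to 0.27 for Uqcrb, -0.052 to 0.13 for Cox7b, -0.062 to 0.16 for Atp5d, -0.038 to 0.51 for Cox6a1, -0.065 to 0.26 for Cox6b1, -0.072 to 0.23 for Cox8a, -0.24 to 0.085 for Cox8b, -0.12 to 0.23 for Cox8c and -0.10 to 0.012 for Ndufa4l2. Between genotypes under 4-OHT, leaving out 1 line gave -0.086 to 0.054 for the complex III mean and -0.041 to 0.039 for complex IV, which was -0.040 with arrays centred on their median. The cause of these turns was not tested. Without the replicate block 0 subunit genes were called in the fl pairs, as with it. Of all genes, 24 were called in the fl pairs, against 3 with median centring, 8 with no level filter, 14 above the 50th percentile, 16 with the offset, 34 with a trended prior, 61 with quantile normalization, 83 with a random block, 440 without line 10986, 3907 with array weights and 0 without any other single line. Under 4-OHT the count between genotypes was 101, against 66 with median centring and 0 to 51 with 1 line left out. The gene lists were refitted without line 10986 as an alternative chosen after seeing the data, and the medians of the assembly factors, carriers, citric acid cycle genes and regulators then lay below 0.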
